A study of Arabidopsis thaliana with 6 samples.

Results

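Plant defensins are small secreted peptides, rich in cysteine, many of which act against fungi, and in Arabidopsis thaliana the best known families are numbered PDF1 and PDF2. The genes described here are those whose symbol begins with PDF1. or PDF2. in the platform annotation of an Affymetrix array, each represented by a probe set paired with exactly 1 gene. The rule found 5 genes, PDF1.2, PDF1.2b, PDF1.4, PDF2.1 and PDF2.5, each with 1 probe set, among 13350 genes that had such a probe set. All 22746 probe sets of the array, controls aside, entered the tests. RefSeq's gene table held 13 genes with a PDF1 or PDF2 name, counting synonyms. A further 5 of these were on the array under another symbol, namely LCR67 (PDF1.1), LCR69 (PDF2.2), LCR68 (PDF2.3), LCR66 (PDF2.4) and LCR72 (PDF2.6), where LCR stands for low-molecular-weight cysteine-rich. They are set beside the 5 members. PDF1.2c, PDF1.3 and PDF1.5, the remaining 3, were not analysed here.

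The study compared whole rosettes of the pmr5 mutant, whose genetic background is Col-0, with rosettes of wild type Col-0. Plants of both genotypes were untreated, 3 weeks old and grown at 22 °C with a 14 h photoperiod. Each genotype had 3 arrays, which the labels call biological replicates without saying whether sowings or harvests were separate, so that p-values measure the spread between these samples only. PMR5, named after powdery mildew resistance, belongs to a family of proteins known to acetylate cell wall polysaccharides. No probe set was paired with it, so the mutated gene was not analysed here, and neither the pmr5 allele nor the number of plants per sample is given in the sources used here.

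PDF1.2 is the standard marker of the branch of plant immunity that jasmonate and ethylene switch on together. In that branch, ethylene signalling stabilises the transcription factor EIN3, ethylene response factors act downstream of it, and these bind the promoter of PDF1.2. Salicylate signalling is known to oppose the branch. Close copies of PDF1.2 encode near-identical peptides, and the probe set for PDF1.2b carries the suffix that Affymetrix gives to probe sets whose probes can also match other transcripts. The signals of PDF1.2 and PDF1.2b are therefore not certain to come from a single gene each.

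The values are log2 signals, so that 1 unit is a 2-fold difference, and they share a lowest value of 2.19 on every array, called the floor here. Array medians lay between 4.71 and 4.78 in pmr5 and between 4.68 and 4.73 in Col-0. Between 25.2% and 26.3% of the probe sets were at the floor on pmr5 arrays, and between 25.0% and 25.8% on Col-0 arrays. Any 2 arrays correlated at 0.980 to 0.995 across probe sets, which are not independent replicates. Of 10 rosette leaf markers the 4 measured (RCA, LHCB4.1, LHCB4.2 and SBPASE) read above 13 on every array. Of 8 root markers 3 were measured: EXPA7 and EXPA18 stayed at the floor on all 6 arrays, while PYK10 read from 3.28 to 5.86 in pmr5 and from 3.43 to 5.20 in Col-0. Whole rosettes hold many cell types, and fewer cells of a type cannot be told apart from less RNA per cell.

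PDF1.2 was above the floor in every untreated rosette sample of both genotypes, and its values lay further apart among Col-0 arrays than among pmr5 arrays. It read 9.61, 10.59 and 9.85 on pmr5 arrays 1, 2 and 3, against 10.24, 5.86 and 8.99 on Col-0 arrays 1, 2 and 3. The low reading was that of Col-0 replicate 2, and the other 5 arrays lay within 1.60 log2 units of each other, with both genotypes overlapping. The mean was 10.02 ± 0.51 in pmr5 and 8.36 ± 2.26 in Col-0 (SD, n = 3 each). The difference of pmr5 minus Col-0 was 1.65 (SE 1.27), or 3.14-fold, with a 95% interval of -1.75 to 5.06. With limma over all probe sets the adjusted p was 1 and the unadjusted p 0.258. Without Col-0 replicate 2 the difference was 0.40 (SE 0.57).

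PDF1.2b, the copy of PDF1.2 on chromosome 2, showed the same low array. Its log2 signal was 10.31, 10.81 and 9.80 in pmr5, against 10.72, 5.91 and 9.97 in Col-0, in the order of the replicates. Apart from Col-0 replicate 2, the arrays of both genotypes covered the same levels. The mean was 10.31 ± 0.51 in pmr5 and 8.87 ± 2.59 in Col-0 (SD, n = 3 each), a difference of 1.44 (SE 1.45) with a 95% interval of -2.44 to 5.32, and limma gave an adjusted p of 1. Without Col-0 replicate 2 it was -0.04 (SE 0.44), so the direction of the PDF1.2b difference rests on that array. Over the 6 arrays PDF1.2 and PDF1.2b had a Pearson correlation of 0.98 and a Spearman correlation of 0.83, given as a description because their probes may share targets. The Pearson correlation was 0.75 over the 5 arrays without Col-0 replicate 2 and 0.59 over the 4 arrays left when pmr5 replicate 2 was also removed.

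PDF1.4, whose gene lies on chromosome 1, had another order of arrays than PDF1.2. It read 6.33, 7.36 and 7.42 in pmr5, against 5.61, 7.21 and 6.62 in Col-0. Its Col-0 replicate 2 value was the highest of the 3 Col-0 arrays, where those of PDF1.2 and PDF1.2b were the lowest, and the genotypes overlapped. The mean was 7.03 ± 0.61 in pmr5 and 6.48 ± 0.81 in Col-0 (SD, n = 3 each), a difference of 0.56 (SE 0.56, 95% interval -0.94 to 2.05), and limma gave an adjusted p of 1. Leaving out Col-0 replicate 1, which had the lowest value, gave a difference of 0.12, and leaving out Col-0 replicate 2 gave 0.92.

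PDF2.1 and PDF2.5 were silent in the sense these data allow: both were listed at the floor of 2.19 on all 3 pmr5 arrays and all 3 Col-0 arrays. PDF2.5 is known for a part in cadmium handling. Values at the floor have no order, so a difference between the genotypes could not be seen for either gene. The floor was the value on all 6 arrays for 2 of the 5 members, against 16.5% of all probe sets.

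**Figure D1:**
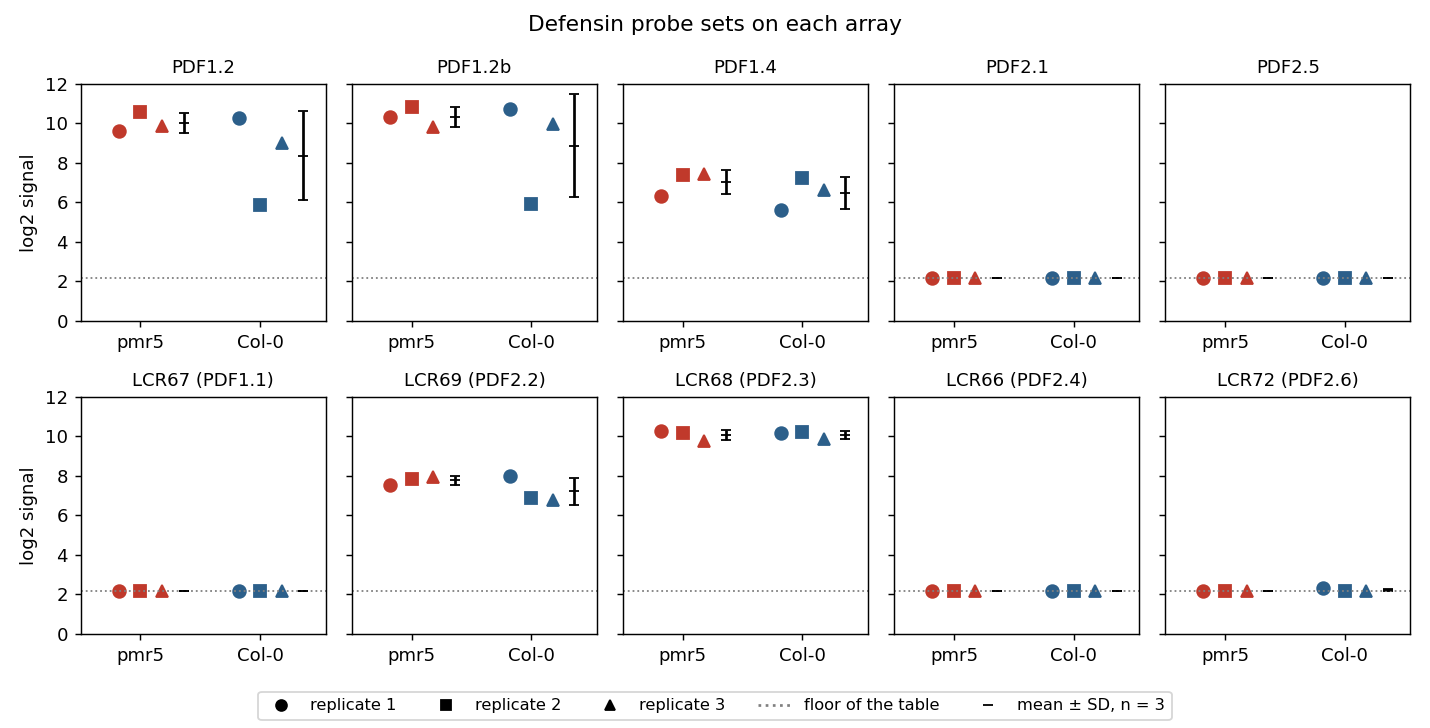
Log2 signal (y axis) of the 10 defensin probe sets on each array, with pmr5 left and Col-0 right in each panel. Symbols mark the replicate number, bars the mean ± SD of 3 arrays and the dotted line the floor of the table; PDF1.2 and PDF1.2b stand at 5.86 and 5.91 in Col-0 replicate 2, while PDF2.1, PDF2.5 and LCR66 lie on the dotted line in every sample.

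The 5 defensin genes listed under LCR symbols showed the same division into measured and silent genes. LCR68 (PDF2.3), whose peptide is known to block potassium channels, had the narrowest span over the 6 arrays among the 5 defensin genes above the floor on every array, 0.49 log2 units. It read 10.24, 10.18 and 9.75 in pmr5, against 10.16, 10.22 and 9.85 in Col-0, with the genotypes overlapping. Its difference was -0.02 (SE 0.18), with a 95% interval of -0.51 to 0.47 and an adjusted p of 1 in limma. LCR69 (PDF2.2) read 7.53, 7.82 and 7.93 in pmr5, against 7.98, 6.89 and 6.76 in Col-0. Here Col-0 replicate 1 was the highest of all 6 arrays and the other 2 Col-0 arrays were the lowest, so the genotypes overlapped. The difference was 0.55 (SE 0.39, 95% interval -0.48 to 1.58), and limma gave an adjusted p of 1. It was 0.93 without Col-0 replicate 1 and 0.32 without Col-0 replicate 3.

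LCR66 (PDF2.4) stayed at the floor on all 6 arrays. LCR67 (PDF1.1), known as a seed defensin, was at it on 5 arrays and barely above it on pmr5 replicate 1. LCR72 (PDF2.6), which like PDF2.5 is known for cadmium binding, was at or just above it, with 2.19 on all 3 pmr5 arrays and 2.31, 2.19 and 2.19 on the Col-0 arrays. In all, 3 of the 10 defensin genes stayed at the floor on all 6 arrays, against 16.5% of all probe sets. Of the 10 genes 5 were above the floor on every array.

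Silent and measured genes stood side by side in the genome. In the gene order of RefSeq's TAIR10.1 assembly, LCR69, PDF2.1, LCR68 and LCR72 lie close together on chromosome 2, with 0 protein-coding genes between PDF2.1 and LCR68, 0 between LCR68 and LCR72, and 1 between LCR69 and PDF2.1. Within this stretch LCR69 and LCR68 were above the floor on every array, and PDF2.1 between them was at it in all samples. PDF1.2 and PDF1.2b, which share the low Col-0 array, lie on different chromosomes, 5 and 2. Each has another PDF1 gene directly beside it, PDF1.2c and PDF1.3, which were not analysed here.

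No member passed the test between the genotypes. Of the 5 members 0 passed an adjusted p under 0.05 in limma, as did 0% of all 22746 probe sets. At an unadjusted p under 0.05 there were 0 of the 5, against 2.6% of all probe sets. The genotypes did not overlap in 0 of the 5, against 4.66% of all probe sets. PDF2.1 and PDF2.5, at the floor on every array, could neither pass nor separate, so these counts rest on the other 3 members. The 3 members above the floor all had a higher mean in pmr5, by 0.56 to 1.65 log2 units. The median difference over the 5 members was 0.56, against 0 over all probe sets. With 2 members at the floor this median is the difference of PDF1.4 alone. It does not describe a shift of the members as a set. Removing pmr5 replicate 1 gave a members' median of 0.91, and removing pmr5 replicate 3 gave 0.36. With Col-0 replicate 1 removed it was 0.12, and with Col-0 replicate 2 removed it was 0, the value of the genes at the floor. The probes of PDF1.2 and PDF1.2b may share targets, so these genes are not separate evidence.

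**Figure D2:**
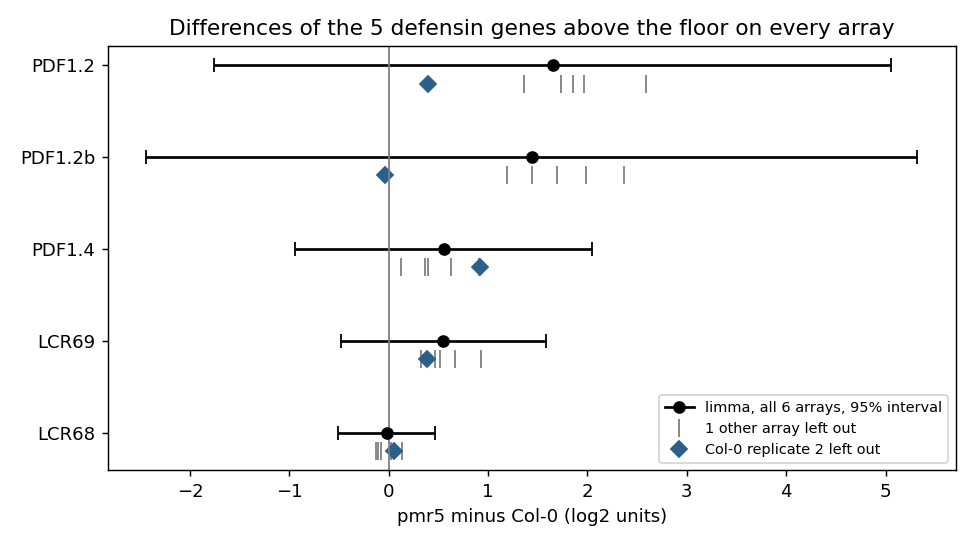
Difference of pmr5 minus Col-0 in log2 units (x axis) for the 5 defensin genes above the floor on every array, with the 95% interval of limma as the horizontal bar. Under each gene, ticks and diamonds mark the difference with 1 array left out; without Col-0 replicate 2 (diamond) PDF1.2 is at 0.40 and PDF1.2b at -0.04, and every interval includes 0.

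The spread of PDF1.2 and PDF1.2b within Col-0 was known when the genes were chosen and is given as a description. PDF1.2 spanned 0.98 log2 units over the pmr5 arrays, or 1.97-fold, and 4.38 over the Col-0 arrays, or 20.9-fold. PDF1.2b spanned 1.02 log2 units in pmr5, or 2.02-fold, and 4.81 in Col-0, or 28.0-fold. Among the 16186 probe sets that were above the floor on every array the median range was 0.37 in pmr5 and 0.37 in Col-0. Over all tested probe sets the pmr5 ranges of PDF1.2 and PDF1.2b ranked 2052 and 1894, whereas their Col-0 ranges ranked 35 and 26 from the widest. A Col-0 range at least as wide as that of PDF1.2 was found in 0.154% of the probe sets.

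The other defensin genes were not spread to the same degree. PDF1.4 had a range of 1.09 in pmr5 and 1.60 in Col-0, LCR69 of 0.40 in pmr5 and 1.22 in Col-0, and LCR68 of 0.49 in pmr5 and 0.37 in Col-0. Over all tested probe sets the Col-0 ranges of PDF1.4, LCR69 and LCR68 ranked 745, 1290 and 8183 from the widest. A Col-0 range at least as wide was found in 3.28% of the probe sets for PDF1.4 and in 5.67% for LCR69. Over all 6 arrays LCR68 spanned 0.49 log2 units and PDF1.2 spanned 4.73. Without Col-0 replicate 2 the Col-0 range was 1.26 for PDF1.2 and 0.75 for PDF1.2b.

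**Figure D3:**
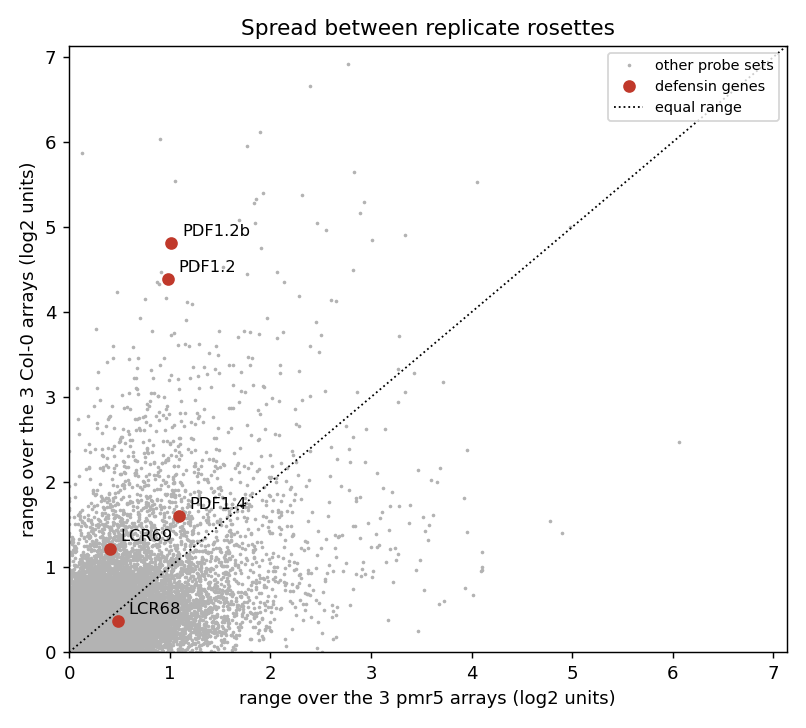
Range of each probe set over the 3 pmr5 arrays (x axis) against its range over the 3 Col-0 arrays (y axis), both in log2 units, for the probe sets that were above the floor on every array. Red points are the defensin genes and the dotted line marks equal ranges; PDF1.2 (0.98 and 4.38) and PDF1.2b (1.02 and 4.81) lie far above the line, LCR68 (0.49 and 0.37) just below it.

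A low reading of this size was rare on Col-0 replicate 2. Only 6 of the 22746 probe sets read at least 2 log2 units lower there than on each of the other 5 arrays. PDF1.2b, lower by 3.88, and PDF1.2, lower by 3.13, were the first and second of them in size. Their Col-0 spread was known when the genes were chosen, so this order is a description. SBE2.2, for a starch branching enzyme, and AT5G06700, known as TRICHOME BIREFRINGENCE, were the other named ones. A further 2 probe sets were not paired with exactly 1 gene. On pmr5 replicates 1, 2 and 3, 0, 1 and 0 probe sets were as far below the other arrays, and on Col-0 replicates 1 and 3 there were 39 and 0. Limma's array weights, which fall where an array departs from its group over many probe sets, were highest for Col-0 replicate 2, at 2.47. The summed log2 signal of the 4 leaf markers was 57.8 to 58.1 in pmr5 and 57.4 to 58.1 in Col-0, with Col-0 replicate 2 at 57.4. The part of these markers, or of the quality of the array, in the low readings was not tested.

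The genes whose pattern over the 6 arrays was most like that of PDF1.2 were sought among 1005 other probe sets of 1 gene, above the floor on every array and with an SD of at least 0.5. PDF1.2b came first with a Pearson correlation of 0.98. AT5G06700 followed at 0.96, SBE2.2 at 0.945, AT5G06330 at 0.92 and AT3G23550 at 0.91, with Spearman correlations of 0.77, 0.37, 0.89 and 0.09. SBE2.2 read 9.41, 9.24 and 9.04 in pmr5, against 9.59, 6.18 and 9.27 in Col-0. AT5G06700 read 8.81, 8.92 and 8.75 in pmr5, against 8.90, 6.74 and 8.85 in Col-0. In both, Col-0 replicate 2 was low and the other 5 arrays were close together. Without that array the Pearson correlations with PDF1.2 were 0.46 for AT5G06700, 0.14 for SBE2.2, 0.64 for AT5G06330 and -0.77 for AT3G23550. For PDF1.2b the value was 0.75, as given above. Of the 5 genes 0 were then still among the 5 highest. LCR69 ranked 26 with a Pearson correlation of 0.74, which was 0.86 without Col-0 replicate 2, and PDF1.4 was at -0.26.

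**Figure D4:**
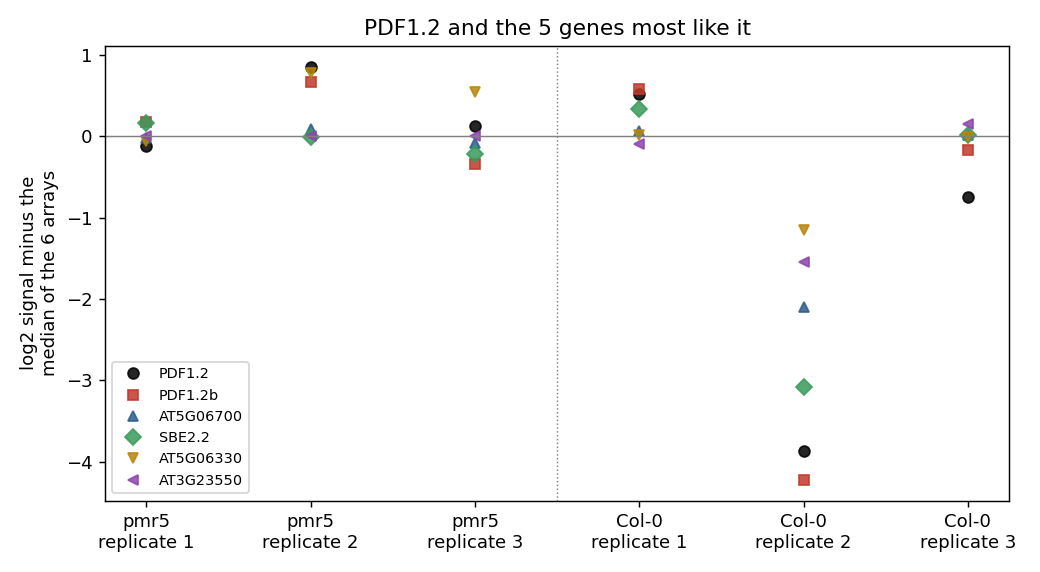
Log2 signal minus the median of the 6 arrays (y axis) on each array, pmr5 left of Col-0, for PDF1.2 and the 5 genes with the highest Pearson correlation to it. All 6 genes are lowest in Col-0 replicate 2, by the most in PDF1.2b and PDF1.2, and without that array the correlations of the 4 other than PDF1.2b lie between -0.77 and 0.64.

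Regulators and other outputs of the same defence branches were sparsely covered by named probe sets. Of 23 listed genes of the jasmonate and ethylene branch 1 was measured, EIN3, and of 23 of jasmonate synthesis and the wound response 1, the thionin gene THI2.1. EIN3 read 8.81, 8.43 and 8.84 in pmr5, against 8.52, 8.40 and 8.42 in Col-0. The lowest pmr5 value lay among the Col-0 values, and the difference was 0.24 (SE 0.13) with an adjusted p of 1 in limma. Its Col-0 arrays lay within 0.12 log2 units of each other, on the same arrays on which PDF1.2 differed by 4.38. The arrays measure EIN3 transcript and not the protein that ethylene signalling stabilises. The part of EIN3 in the PDF1.2 values was not tested. THI2.1, which jasmonate is known to induce, stayed at the floor on all 6 arrays.

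Of 14 salicylate branch genes 2 were measured. GRX480 encodes a glutaredoxin that binds TGA transcription factors and is known to repress PDF1.2 when overexpressed. It read 6.24, 8.34 and 7.17 in pmr5, against 4.39, 6.30 and 7.77 in Col-0. The lowest GRX480 value was on Col-0 replicate 1, where PDF1.2 had its highest Col-0 value, and over the 6 arrays the Pearson correlation with PDF1.2 was 0.09 and the Spearman correlation 0.14. The Pearson correlation was -0.14 over the 5 arrays without Col-0 replicate 2 and -0.83 over the 4 arrays left when pmr5 replicate 2 was also removed, so it has no settled sign, and the part of GRX480 in the PDF1.2 values was not tested. The difference of GRX480 was 1.09 (SE 1.1), and 0.21 without Col-0 replicate 1 or 1.90 without Col-0 replicate 3. SAG101, an immune regulator that acts with EDS1, differed by 0.14 (SE 0.27) and by -0.14 without Col-0 replicate 1. Neither passed the test, and limma gave both an adjusted p of 1. Of 4 camalexin genes 0 were measured.

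Other small secreted peptides likewise included silent genes beside measured ones. This list of peptides includes the 5 defensin genes under LCR symbols. Of its 9 measured members 4 stayed at the floor on all 6 arrays, against 16.5% of all probe sets. These were LCR24, LCR59, LCR80 and LCR66, the last already counted above. THI2.2, a thionin gene, read 7.19, 6.69 and 7.79 in pmr5, against 8.09, 7.69 and 7.48 in Col-0, a difference of -0.53 (SE 0.35) with an adjusted p of 1 in limma. It was -0.26 without pmr5 replicate 2 and -0.81 without pmr5 replicate 3. On Col-0 replicate 2 THI2.2 lay between the other Col-0 arrays. Of each of these lists 0 members passed in either direction.

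The 2 measured guard cell markers, of 4 listed, read higher on every pmr5 array than on every Col-0 array, without passing the test, where 4.66% of all probe sets did not overlap in either direction. AT1G22690 read 10.85, 10.79 and 10.66 in pmr5, against 10.37, 10.17 and 10.02 in Col-0, a difference of 0.58 (SE 0.11). The difference of FMA was 0.16 (SE 0.06), and limma gave both an adjusted p of 1. Their summed log2 signal was 16.4 to 16.5 in pmr5 and 15.6 to 15.8 in Col-0. On Col-0 replicate 2 it was 15.7, between the other Col-0 arrays, and the markers' part in the defensin values was not tested.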

How the data were processed

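Transcripts of untreated rosettes were measured on 6 one-colour arrays, 3 of pmr5 and 3 of Col-0, grouped by the titles. The authors deposited log2 signals, 1 per probe set. Per the submitters' processing notes these came from RMA, with affy named as the package. Versions, and the step that set the shared lowest value, are not given in the sources used here. Precision is limited by the number of arrays.

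Of 22810 probe sets 64 Affymetrix controls were left out. The platform annotation paired 13513 of the others with 1 gene, 503 with several and 8730 with none, and 13436 of the 13513 matched RefSeq's table (TAIR10.1), used for names and gene order only. The deposited values were tested as pmr5 minus Col-0 with lmFit and eBayes of limma 3.58.1 in R 4.3.3, 2-sided, with Benjamini-Hochberg adjustment over all 22746 and a threshold of 0.05. In the simulated comparison of pmr5 with Col-0 over 22746 probe sets, the fit called 27.2% of changes of 1 log2 unit, 59% of 2 and 87.2% of 4. The changes were placed only in probe sets above the floor on every array, each with its own SD. These shares pool such probe sets and do not hold for PDF1.2 or PDF1.2b, whose SEs were 1.27 and 1.45. Each simulated set also held many true changes at once, which eases the Benjamini-Hochberg adjustment. In the real comparison 0 of the 22746 probe sets passed, so the shares may be too high for a change that stands alone.

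The members and lists were chosen with earlier results of these data known. Named were all members, up to 3 measured genes per list by smallest p, and the 5 genes most correlated with PDF1.2. The highest-mean probe set stood for a gene. The LCR names, the single-array gaps and the values for silent list members were added after the values were seen. None of the 9 seed, 6 flower and 4 camalexin genes listed was analysed here.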

Additional observations from a re-analysis of the deposited data

How the results depend on the processing

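Alternatives were the replicate number as a block, 1 array left out, quantile normalization, a filter on dim probe sets, centring each array on its median, a trend with a robust prior, array weights, every probe set of a gene and an adjusted p under 0.1. Each member has 1 probe set, so taking every probe set of a gene only repeated the main result. Members by synonym, other gap sizes, the Col-0 range of PDF1.2b, the median over the members and the correlation of PDF1.2 with PDF1.2b were added after seeing the data. In limma 0 members passed under any of them, and the count over all probe sets was 0 to 13 with 1 array left out, highest without pmr5 replicate 2. The adjusted p of PDF1.2 in limma was 0.601 to 1 over its 12 alternatives. With 1 array left out the difference of PDF1.2 lay between 0.40, without Col-0 replicate 2, and 2.59, without Col-0 replicate 1. With array weights it was 2.77. Those weights were 2.47 for Col-0 replicate 2, the low array, against 0.53 and 0.66 for Col-0 replicates 1 and 3, so the weighted difference leans on the low array. The Col-0 range of PDF1.2 was 1.26 to 4.38 with 1 Col-0 array left out. The sign turned for PDF1.2b (-0.038 without Col-0 replicate 2, within -0.038 to 2.37), for LCR68 (-0.13 to 0.13 with 1 array left out), and for SAG101 (-0.14 to 0.33 with 1 array left out, -0.086 with array weights, the cause was not tested). Centring put PDF2.1 and PDF2.5 at -0.040, which is the shift of the array medians itself. The filter on dim probe sets left 0 members at the lowest value, since it removes them. By synonym 3 genes were at it, against 2. The gap count on Col-0 replicate 2 was 24 at 1 log2 unit, 9 at 1.5 and 2 at 3. The labels do not say whether the replicate numbers pair the samples. The correlations of same-numbered deviations were 0.12, -0.28 and 0.20, which are too few to decide it. With the replicate block the count was 0 and PDF1.2 differed by 1.65 (SE 1.45), with no call changed. The block also raised the SE of PDF1.2b to 1.58 and of LCR69 to 0.46. It lowered the SE of PDF1.4 to 0.19 and of LCR68 to 0.05. Values at or near the lowest value limit what can be seen of silent genes.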
